A study of Mus musculus with 6 samples.

Results

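Lrg1 and 9 further genes tied to STAT3 signalling and the acute-phase response (Saa1, Saa2, Saa3, Socs3, Stat3, Il22ra1, Fut2, Lcn2 and Nos2) were followed across 6 expression arrays of mouse colon epithelium. Every probe set, a group of short probes that reads one transcript, was taken whose annotation gives 1 gene symbol and whose symbol is one of the 10. This gave 17 probe sets for the 10 genes, of 34945 probe sets for 18193 genes in all. Lrg1, Saa2, Saa3, Il22ra1, Lcn2 and Nos2 had 1 probe set each and the other 4 genes had more. The genes were chosen by results of these same arrays, above all the measured difference of Lrg1 between the genotypes. The differences given here are therefore a description of the arrays, and no test of them is drawn on.

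The knockout group held 3 arrays of epithelium from mice of genotype vil-Cre-Bcl9-/-/Bcl9l-/-, in which the co-activators BCL9 and BCL9L of beta-catenin are deleted by a Cre recombinase under the villin promoter, active in the intestinal epithelium (pools of 3, 2 and 2 mice for knockout 1, 2 and 3). The wild-type group held 3 arrays (wild type 4, 5 and 6, pools of 3 mice each). Mice of both groups had an age of 12 weeks, a background mixed from 129SvEv/C57BL/6/DBA/2, and colon labelled healthy. Cells came off the muscle after soaking in EDTA and were not sorted, and the labels name Cre only for the knockouts, so effects of Cre and of the deletions cannot be told apart.

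STAT3 is a transcription factor that Janus kinases activate below receptors for cytokines such as IL-6 and IL-22. In the gut, IL-22 comes from innate lymphocytes and T cells and acts on the epithelium through a receptor of IL22RA1 and IL10RB, and the genes it induces there include antibacterial proteins, the fucosyltransferase gene Fut2 and the feedback inhibitor Socs3. Acute-phase proteins are secreted proteins, many of them made in the liver, whose production changes in inflammation. LRG1, a leucine-rich glycoprotein, is one of them; it modifies TGF-beta signalling in endothelium, and neutrophils store it too.

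The stretch before the start site is shown for Lrg1 and Socs3, which had the largest differences of the 10 genes, and for Saa3, which lay on the other side. Each is 250 bases long and ends at the base before the start site, read 5′ to 3′ on the gene's strand from RefSeq (GRCm38.p6). Capitals mark matches to a STAT motif (TTCNNNGAA) or a C/EBP motif (TTGCNNAA), searched on both strands.
Lrg1, chr17:56121947-56122196, minus strand: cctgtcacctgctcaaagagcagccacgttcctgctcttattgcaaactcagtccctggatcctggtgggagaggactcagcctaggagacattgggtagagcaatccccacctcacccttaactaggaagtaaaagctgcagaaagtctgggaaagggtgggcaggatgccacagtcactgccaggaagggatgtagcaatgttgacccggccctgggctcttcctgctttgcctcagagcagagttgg
Socs3, chr11:117969367-117969616, minus strand: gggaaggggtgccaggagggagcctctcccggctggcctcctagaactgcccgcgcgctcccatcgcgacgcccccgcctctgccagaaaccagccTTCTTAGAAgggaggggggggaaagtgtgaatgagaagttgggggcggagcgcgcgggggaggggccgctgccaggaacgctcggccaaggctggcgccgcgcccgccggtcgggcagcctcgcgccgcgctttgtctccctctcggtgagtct
Saa3, chr7:46715677-46715926, minus strand: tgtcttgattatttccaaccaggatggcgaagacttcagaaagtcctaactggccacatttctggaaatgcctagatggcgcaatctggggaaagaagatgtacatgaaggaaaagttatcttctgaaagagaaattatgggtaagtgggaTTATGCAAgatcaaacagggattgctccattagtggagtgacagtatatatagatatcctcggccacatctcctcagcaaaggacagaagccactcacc

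In the Socs3 stretch the STAT match begins 154 bases before the start site. In the Saa3 stretch the C/EBP match, on the opposite strand, begins 99 bases before the start site, and the Lrg1 stretch holds neither motif. The same search covered Saa1, Saa2, Stat3, Il22ra1 and Lcn2, 8 genes in all. The STAT motif was found in 1 of the 8 (Socs3), against 7.02% of 32851 stretches of that length before RefSeq start sites. The C/EBP motif was found in 4 (Saa1, Saa2, Saa3 and Lcn2), against 9.56%. Saa1 and Saa2, neighbours on chromosome 7, were 94.8% identical over 251 aligned positions of these stretches, and their C/EBP matches both read TTGCACAA. Saa3 was 52.5% identical to Saa1. No 2 matches overlapped. A match shows only that these letters are present.

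Values are on the log2 scale as the authors' RMA processing gave them, so a difference of 1 is 2-fold. Bright and dim rank probe sets by value alone, and values of different genes are not read as relative transcript amounts. Array medians lay between 5.44 and 5.58. The leading principal component, with 40.2% of the variance, placed wild type 6 at 82.5 and the other 5 arrays between -34.4 and 9.54, so results are also given without that array. Markers of colon epithelium were bright in every array, with all 16 above the median probe set and a mean between 12.5 and 12.6. For the targeted genes, the brightest probe sets differed by 0.11 (SE 0.20) for Bcl9 and 0.22 (SE 0.15) for Bcl9l. The other probe sets differed by -0.04 for Bcl9 and by 0.15 and -0.20 for Bcl9l. No source used here says whether any of these probes lie in the deleted parts. In bulk tissue, fewer cells of a type and less RNA per cell cannot be told apart.

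Lrg1 was higher in every knockout array than in any wild-type array, but the wild-type arrays were split. The probe set 1417290_at read 7.76, 7.61 and 7.62 in knockout 1, 2 and 3, against 4.18, 3.92 and 7.39 in wild type 4, 5 and 6. The knockout arrays lay close together, wild type 4 and 5 were far below them, and wild type 6 was just short of the lowest knockout. Knockout averaged 7.66 ± 0.08 and wild type 5.17 ± 1.93 (SD, n = 3 arrays each), which differ by 2.50 (SE 0.86, 95% interval 0.44 to 4.55). Without wild type 6 the wild-type mean was 4.05 and the difference 3.61 (SE 0.14). Wild type 4 and 5 read below the array medians and no detection call was used, so Lrg1 is not shown to be above background there and no fold is given. Among all 45037 probe sets, that of Lrg1 had the 4th highest difference, and the 3rd highest without wild type 6. Within wild type, array 6 exceeded the mean of arrays 4 and 5 by 3.33, the 70th largest such excess on the array.

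**Figure D1:**
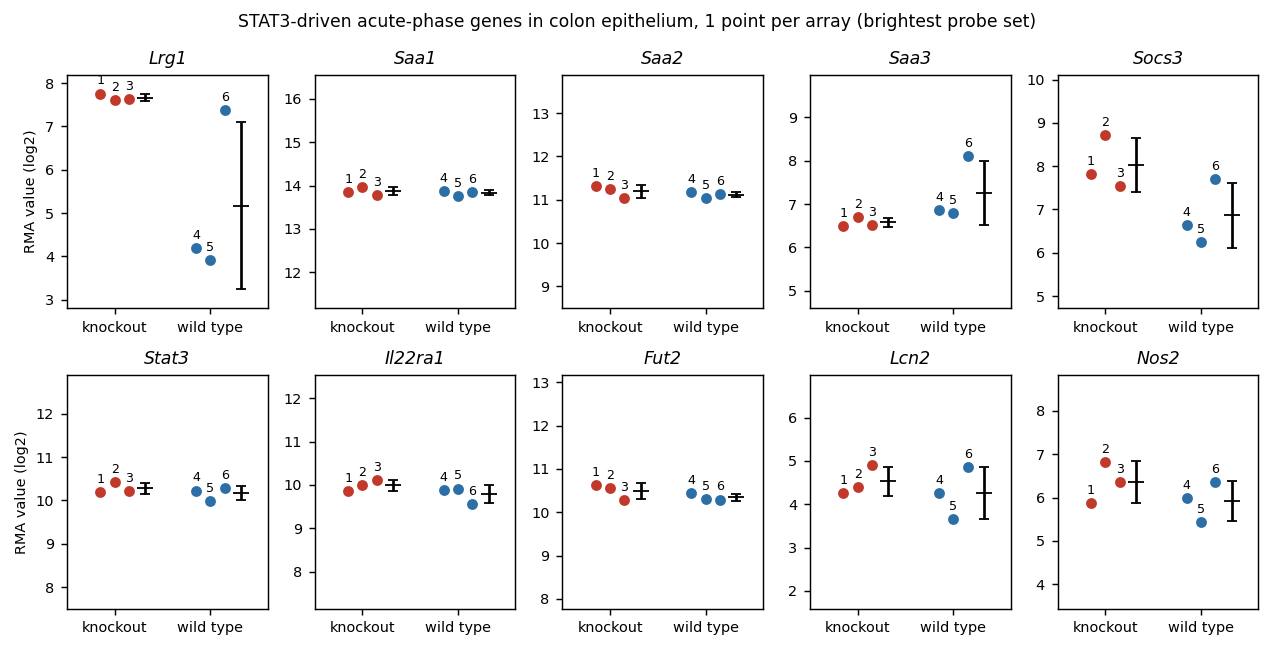
RMA value (log2) of the 10 genes by genotype, each by its brightest probe set, with 1 numbered point per array and the mean with SD (n = 3) beside the points. Every panel spans the same number of log2 units. Lrg1 and Socs3 spread widest, with wild type 6 nearer the knockouts than wild type 4 and 5, while Saa1 and Saa2 lie almost level.

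Socs3 encodes the inhibitor that blocks cytokine receptors and their kinases and is itself switched on by STAT3. Its brightest probe set, 1455899_x_at, read 7.82, 8.72 and 7.54 in knockout 1, 2 and 3, against 6.65, 6.24 and 7.70 in wild type 4, 5 and 6. The groups overlapped, because wild type 6 was above knockout 3. Knockout averaged 8.02 ± 0.62 and wild type 6.86 ± 0.75 (SD, n = 3 arrays each), which differ by 1.16 (SE 0.44, 95% interval 0.10 to 2.22), or 2.24-fold. The other probe sets differed by 1.35 (SE 0.50; 1456212_x_at, the one of the 3 without overlap) and 1.01 (SE 0.39; 1416576_at). The suffix _x_at marks probe sets that can read more than 1 transcript, and 1416576_at is the one of the 3 without it. All 3 probe sets had knockout 2 highest, wild type 5 lowest and wild type 4 next to lowest, and wild type 6 the highest of the wild-type arrays. Without wild type 6 the differences were 1.58, 1.83 and 1.29. Without knockout 2 they were 0.81, 1.05 and 0.64, and without wild type 5 they were 0.85, 0.85 and 0.75, and knockout stayed higher whichever array was left out.

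Stat3 itself, the transcription factor gene and also one of its own targets, was nearly level. The brightest probe set, 1426587_a_at, read 10.19, 10.42 and 10.23 in the knockouts, against 10.23, 9.98 and 10.29 in wild type 4, 5 and 6. These values overlap and differ by 0.11 (SE 0.13, 95% interval -0.21 to 0.43). A further bright probe set (1460700_at) differed by 0.10 (SE 0.16) and a dim one (1424272_at) by 0.16 (SE 0.14). The remaining one, 1459961_a_at, pointed the other way at -0.61 (SE 0.48). It read 5.39, 6.09 and 4.94 in the knockouts, against 5.31, 5.88 and 7.06 in wild type, so wild type 6 was far above the rest, and without it the difference was -0.12. Transcript levels carry no reading of STAT3 phosphorylation.

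Il22ra1, the chain of the IL-22 receptor that epithelial cells carry, read 9.87, 10.002 and 10.12 in the knockouts, against 9.89, 9.92 and 9.56 in wild type 4, 5 and 6. Knockout 1 lay below 2 wild-type arrays, and the difference was 0.21 (SE 0.14, 95% interval -0.14 to 0.55). It was the one gene of the 10 with wild type 6 the lowest of all arrays, by 0.34 against the mean of wild type 4 and 5, and without that array the difference was 0.09.

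The serum amyloid A genes encode acute-phase apolipoproteins. Saa1 and Saa2 were among the brightest probe sets, and their genotypes overlapped. Saa1 read 13.86, 13.97 and 13.78 in the knockouts, against 13.87, 13.76 and 13.86 in wild type 4, 5 and 6 with 1419075_s_at, a difference of 0.03 (95% interval -0.23 to 0.30). Its other probe set, 1450788_at, differed by 0.08 (SE 0.11). Saa2 read 11.32, 11.25 and 11.03 in the knockouts, against 11.17, 11.04 and 11.14 in wild type, which differ by 0.08 (95% interval -0.21 to 0.38). By mean level the Saa1 probe sets stood at the 99.969 and 99.571 percentile of all probe sets and that of Saa2 at the 96.321 percentile. Whether the signal is compressed that near the top of the range was not tested, so these narrow differences set no limit on a change in transcript amount.

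The assignment of these probe sets between Saa1 and Saa2 is uncertain. The annotation names 1419075_s_at as Saa1, yet the transcript accession it lists belongs to Saa2 in RefSeq, the same one that is listed for the Saa2 probe set 1449326_x_at. The suffixes _s_at and _x_at mark probe sets that can read more than 1 transcript. Probe set 1450788_at is the one whose symbol and accession both point to Saa1.

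Saa3, which in mice is made by macrophages and epithelium during inflammation, was the one gene of the 10 lower in the knockouts by its brightest probe set. It read 6.50, 6.70 and 6.52 in knockout 1, 2 and 3, against 6.87, 6.80 and 8.11 in wild type 4, 5 and 6. The groups did not overlap, but wild type 6 stood far above the other 5 arrays, which lay within 6.50 to 6.87. The difference was -0.68 (SE 0.35, 95% interval -1.51 to 0.14) and -0.26 (SE 0.13) without wild type 6.

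Fut2 adds the fucose that coats the gut surface. It read 10.62, 10.56 and 10.27 in the knockouts, against 10.44, 10.31 and 10.29 in wild type 4, 5 and 6 (1434862_at), a difference of 0.14 (SE 0.13, 95% interval -0.19 to 0.46). Its other probe set, 1450246_at, differed by 0.24 (SE 0.14). Knockout 3 lay below all wild-type arrays in the first and within their range in the second, so the groups overlapped in both.

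Lcn2 encodes lipocalin-2, which withholds iron from bacteria by binding their siderophores. It read 4.27, 4.40 and 4.91 in the knockouts, against 4.26, 3.67 and 4.85 in wild type 4, 5 and 6. This probe set was dim, below the array medians, and no detection call was used, so it is not shown to be above background. The difference of 0.27 (SE 0.32, 95% interval -0.49 to 1.03) turned to -0.030 without wild type 5 and was 0.56 without wild type 6.

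Nos2 encodes the inducible nitric oxide synthase. It read 5.87, 6.83 and 6.37 in the knockouts, against 5.99, 5.43 and 6.35 in wild type 4, 5 and 6. Knockout 1 was below 2 of the wild-type arrays, and the difference was 0.43 (SE 0.31, 95% interval -0.31 to 1.17). It was 0.19 without knockout 2 and 0.64 without wild type 6.

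**Figure D2:**
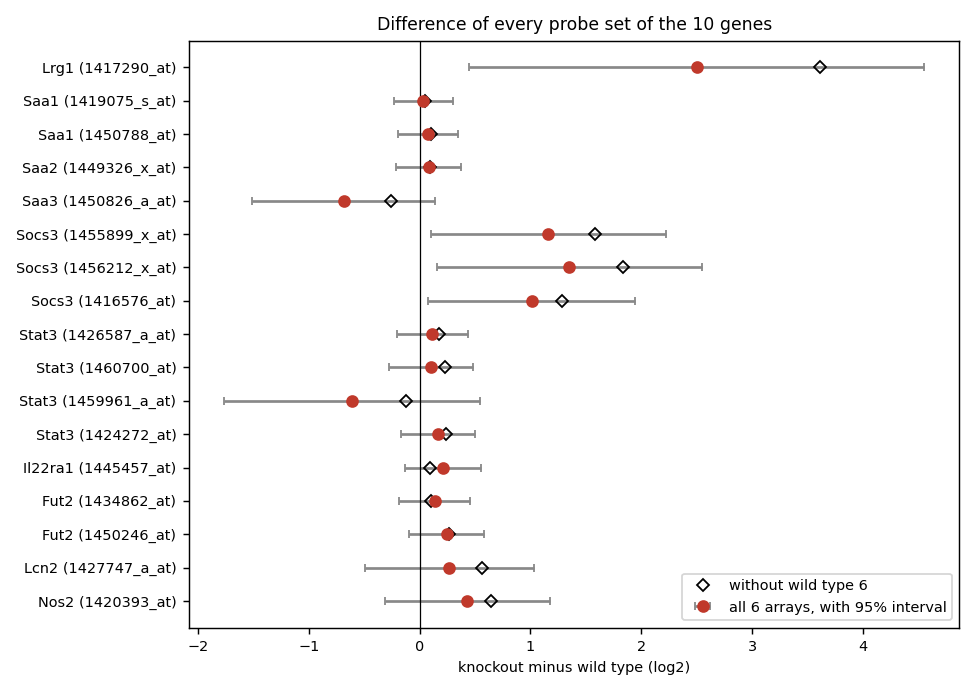
Knockout minus wild type (log2) for all 17 probe sets of the 10 genes, with limma's 95% interval over 6 arrays (red) and the difference without wild type 6 (open diamonds). Lrg1 at 2.50 and the 3 Socs3 probe sets at 1.01 to 1.35 lie apart from the others, and leaving out wild type 6 moved them further from 0.

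Over all 17 probe sets, 0 passed limma's test at an adjusted p under 0.05, as did 0% of all 45037. At an unadjusted p under 0.05 there were 4, those of Lrg1 and Socs3, where 4.15% of all probe sets were so called. The genotypes did not overlap for 2 probe sets higher in the knockouts (4.93% of all) and 1 lower (4.76% of all). Since the genes were grouped with this contrast known, nothing is read from these shares. By their brightest probe sets 9 of the 10 genes lay above 0 and 1 below, with a median of 0.17, where 52.2% of all genes lay above 0 and their median was 0.01. Only Lrg1 passed without wild type 6, 1 of the 17 probe sets where 0.00666% of all passed. With the level of B and plasma cell markers in each array as a covariate 1 of the 17 passed, again that of Lrg1, where 0.0111% of all passed.

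Several of the genes also differed among the wild-type arrays. By its brightest probe set, wild type 6 was the highest of the 3 wild-type arrays for 6 of the 10 genes (Lrg1, Saa3, Socs3, Stat3, Lcn2 and Nos2), against 24.1% of all genes. It was not for Saa1, Saa2, Il22ra1 and Fut2. Wild type 5 was the lowest of all 6 arrays for 6 of the 10 (Lrg1, Saa1, Socs3, Stat3, Lcn2 and Nos2), against 13.1% of all genes. Over probe sets the counts were 12 of 17 and 11 of 17, against 30.7% and 15.1% of all probe sets, and 7 of the 17 belong to Socs3 and Stat3. Because the 10 genes were chosen with the values of these arrays known, nothing is read from these shares either. Wild type 6 exceeded the mean of wild type 4 and 5 by 3.33 for Lrg1, 1.28 for Saa3, 1.26 for Socs3, 0.89 for Lcn2 and 0.64 for Nos2, all by the brightest probe sets, but by 0.04 for Saa1 and 0.03 for Saa2.

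Markers of other cell types differed between the arrays too. The median level of 16 measured B and plasma cell markers, relative to each gene's 6-array mean, was -0.60, -0.37 and -0.46 in the knockouts, against -0.12, -0.67 and 2.04 in wild type 4, 5 and 6. With the markers averaged as they read, this list lay at 5.04 to 5.28 across the knockouts, against 5.13 to 7.76 across wild type. By difference 1 lay above 0 and 15 below, with a median of -0.81, and -0.15 without wild type 6. Without overlap 3 were lower, against 4.83% of all genes. Wild type 6 was the highest of the 6 arrays for 13 of the 16. The brightest, Xbp1, a transcription factor of secretory cells that the epithelium shares, was lowest there, at 10.26 to 10.86 across the knockouts, against 9.94 to 10.62 across wild type. The next, Jchain, which joins secreted antibodies, read 6.54, 7.68 and 8.74 in the knockouts, against 8.26, 6.09 and 9.68 in wild type. With the B and plasma cell level as a covariate the Lrg1 difference was 3.67 (SE 0.21), that of Socs3 1.64 (SE 0.33) and that of Saa3 -0.23 (SE 0.14).

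T cell, innate lymphocyte and fibroblast markers were highest in wild type 6 and mostly lower in the knockouts as well. T cell and innate lymphocyte markers (16 measured) averaged 5.13 to 5.64 across the knockouts, against 5.51 to 6.39 across wild type. Of these, 14 lay below 0, and 4 were lower at an unadjusted p under 0.05, where 1.77% of all genes were so called. Without overlap 5 were lower, against 4.83% of all genes. The median difference of the 16 was -0.49, and -0.18 without wild type 6. Of the brightest, Itgae, an integrin of intraepithelial lymphocytes, differed by -0.74 (SE 0.17), and by -0.77 without wild type 6. The other Itgae probe set differed by -0.0047 (SE 0.11), with overlap. Cd247, a T cell receptor chain, differed by 0.23 (SE 0.20) and its other probe sets by -0.01 to -0.87. Fibroblast markers (10 measured) averaged 4.82 to 5.31 across the knockouts, against 5.20 to 5.97 across wild type. Of these, 9 lay below 0, with a median over the 10 of -0.38, and -0.24 without wild type 6. At an unadjusted p under 0.05, 1 was lower (against 1.77% of all genes), and 4 were lower without overlap (against 4.83%). The brightest were the matrix gene Dcn at -1.16 (SE 0.49) and Igfbp4 at -0.61 (SE 0.26). The other Dcn probe set differed by -0.03 (SE 0.12) and the other Igfbp4 probe sets by -0.26 to -1.93. limma called none of the markers of any list. The part of these cell types in the values of the 10 genes was not tested.

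Cells known to make LRG1, SAA3, lipocalin-2 or inducible nitric oxide synthase outside the epithelium were also read. Neutrophil markers (15 measured, 3 above the median probe set) averaged 4.13 to 4.29 across the knockouts, against 4.18 to 4.57 across wild type. Of these, 7 lay above 0 and 8 below, with a median of -0.04, and wild type 6 was the highest array for 5. The brightest were Lyz2, a lysozyme that macrophages share, at 7.51 to 7.79 across the knockouts, against 7.42 to 10.69 across wild type, and S100a9, a calprotectin subunit, at 5.37 to 5.50 across the knockouts, against 5.68 to 7.18 across wild type. Both were highest in wild type 6, and without it they differed by 0.02 and -0.47. Macrophage and dendritic cell markers (14 measured) averaged 4.93 to 5.04 across the knockouts, against 4.82 to 5.51 across wild type. Of these, 4 were above the median probe set, and wild type 6 was the highest array for 5. By difference 5 lay above 0 and 9 below, with a median of -0.06, and 0.03 without wild type 6. Of the complement gene C1qb, the brightest probe set read 10.26, 7.75 and 5.89 in the knockouts, against 6.94, 6.15 and 9.86 in wild type. Its difference was 0.32 (SE 1.31), while the other C1qb probe sets had wild type 6 highest and differed by -0.60 and -0.44. The receptor gene Csf1r read 5.83 to 6.84 across the knockouts, against 5.23 to 7.45 across wild type, a difference of 0.24 (SE 0.58), and its other probe sets differed by -0.08 and -0.07.

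Endothelial markers (12 measured, 2 above the median probe set) averaged 4.10 to 4.13 across the knockouts, against 4.11 to 4.28 across wild type, and hepatocyte markers (8 measured, 2 above it) 5.48 to 5.55 across the knockouts, against 5.43 to 5.65 across wild type. Neither list was highest in wild type 6. Of the endothelial markers 4 lay above 0 and 8 below, with a median of -0.14. At an unadjusted p under 0.05, 1 was lower, where 1.77% of all genes were so called. Without overlap 3 were lower, against 4.83% of all genes. The brightest endothelial markers were Egfl7 at 0.04 (SE 0.15), with other probe sets at -0.12 to 0.11, and Vwf at 0.68 (SE 0.31). The brightest hepatocyte markers were Ttr at 0.04 (SE 0.16) and Apoa1 at -0.06 (SE 0.13), and each had other probe sets on both sides of 0. Of the epithelial markers, the keratin genes Krt19 and Krt8 were brightest, at 0.04 (SE 0.10) and -0.01 (SE 0.10). RMA assigns a value above 0 to every probe set, so no marker reads 0 and a low value does not show absence.

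**Figure D3:**
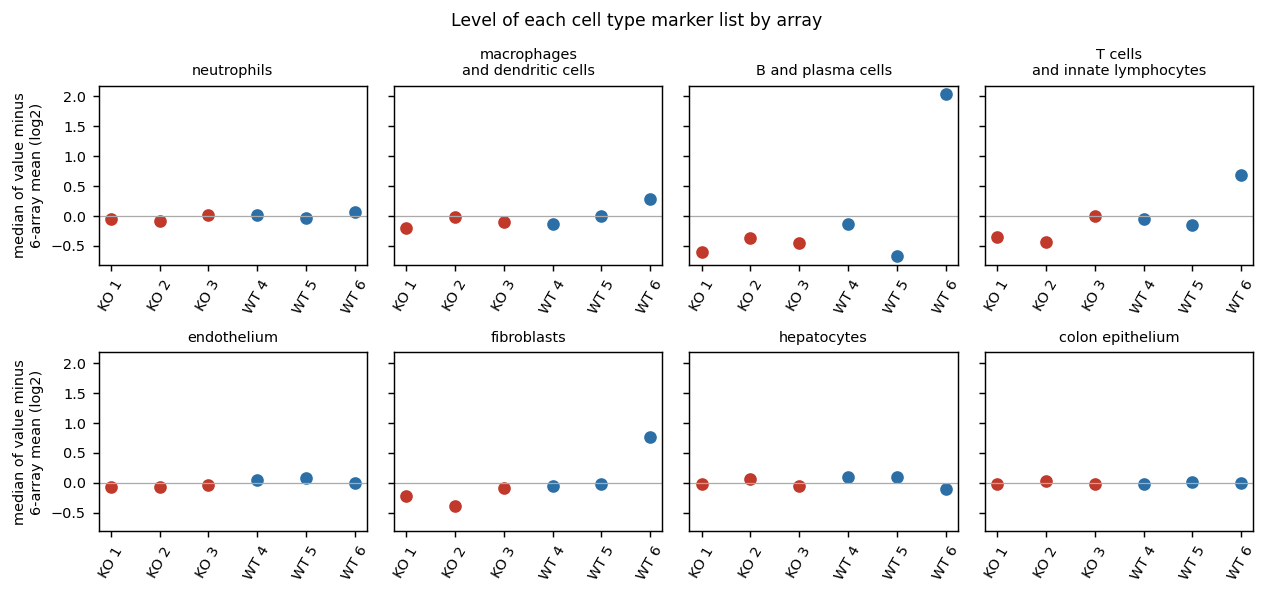
Level of each cell type marker list (median over its genes of the log2 value minus the gene's 6-array mean) in knockout 1 to 3 (red) and wild type 4 to 6 (blue). The B and plasma cell level of wild type 6 is 2.04 while the other 5 arrays lie between -0.67 and -0.12, and the epithelial list is level.

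Likeness to Lrg1 was measured over the 6 arrays as the root mean square difference between a gene's values and those of Lrg1, each centred on its own mean. Lrg1 itself departed from its mean by 1.67 on this measure. The 5 genes with the smallest difference were Wfdc17 (0.48), Reg3g (0.66), Wfdc18 (0.66), Reg3b (0.76) and Khdc1a (0.77). Reg3g and Reg3b are secreted lectins that bind gut bacteria, Wfdc17 and Wfdc18 are small secreted proteins of the whey acidic protein family, and Khdc1a encodes a KH domain protein. Wfdc17 read 10.08, 8.89 and 10.21 in the knockouts, against 6.39, 6.65 and 9.98 in wild type 4, 5 and 6. Reg3g read 11.17, 9.05 and 10.60 in the knockouts, against 6.27, 6.72 and 9.52 in wild type, and Reg3b 12.07, 9.92 and 11.46 against 6.93, 8.28 and 11.08. In each of these 3 genes wild type 6 was above knockout 2, so their groups overlapped. Wfdc18 read 11.67, 11.66 and 12.43 in the knockouts, against 7.22, 9.01 and 11.47 in wild type, and there, as in Khdc1a, the groups did not overlap.

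For Saa3 the genes most like it were Sfrp2 (0.08), a secreted frizzled-related protein, Icos (0.09), a T cell co-stimulator, and Bach2 (0.10), a transcriptional repressor of lymphocytes, where Saa3 departed from its mean by 0.55. All 3 were highest in wild type 6, with Bach2 at 6.24, 6.39 and 6.17 in the knockouts, against 6.66, 6.66 and 8.04 in wild type 4, 5 and 6. For Nos2 (0.44) they were the kinase gene Bmp2k (0.12), the nuclear receptor co-activator gene Ncoa3 (0.13) and the phosphatidate phosphatase gene Lpin1 (0.14). For Lcn2 (0.42) they were Zc3h12a (0.14), which encodes a ribonuclease that degrades inflammatory transcripts, AA386476 (0.15) and the adhesion molecule gene Icam1 (0.15). With 18193 genes and 6 arrays, some close matches arise for any pattern, and no gene among the nearest to one was among the nearest to another.

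**Figure D4:**
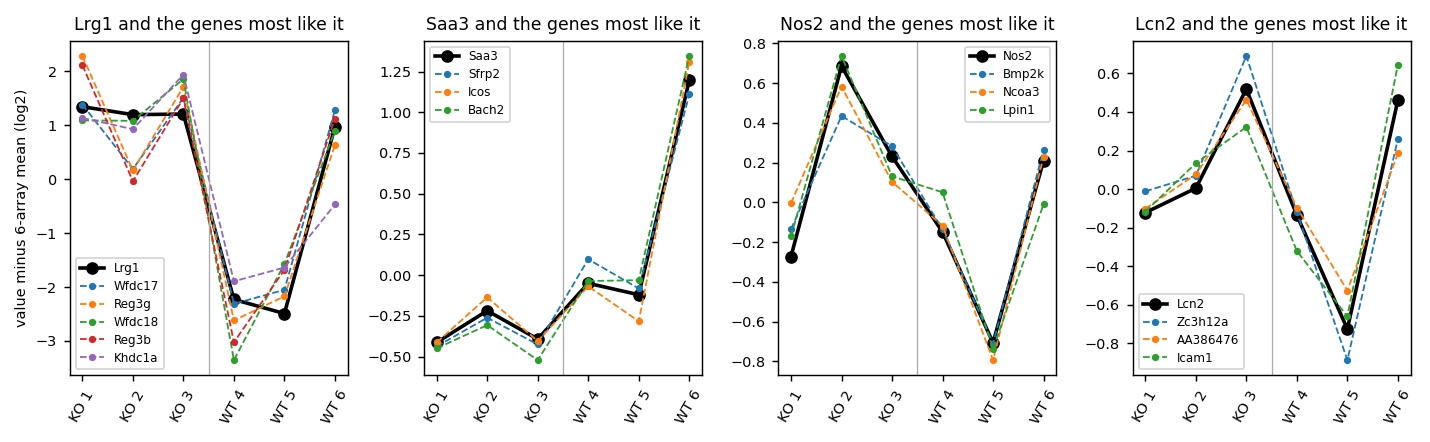
Value minus the 6-array mean (log2) of Lrg1, Saa3, Nos2 and Lcn2 (black) and of the genes with the smallest root mean square difference from each (dashed), by array, knockouts left of the line. Lrg1 and its 5 nearest genes drop in wild type 4 and 5, Saa3 and its 3 nearest peak in wild type 6, and Nos2 and Lcn2 with theirs are lowest in wild type 5.

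The wider pathway was read through 11 lists of 178 genes, of which 163 had a probe set with 1 symbol, each gene by its brightest one. limma called 0 of the 163, as it did 0% of all genes. At an unadjusted p under 0.05, 9 were higher in the knockouts (5.52%) and 2 lower (1.23%), where 2.41% and 1.77% of all 18193 genes were so called. The genotypes did not overlap for 11 genes higher (6.75%) and 12 lower (7.36%), against 5.49% and 4.83% of all genes. Of the 163, 79 lay above 0 and 84 below. No list gene is therefore described as having changed, and the values below are those of the members with the smallest unadjusted p.

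Cytokines that act through STAT3 were mostly dim. Of 13 measured, 2 were brighter than the median probe set, 3 lay above 0 and 10 below, with a median of -0.08. Osm, which encodes oncostatin M, differed by -0.24 (SE 0.12), Il23a by -0.17 (SE 0.11) and Lif, leukemia inhibitory factor, by 0.23 (SE 0.18), whose other probe set differed by 1.07. Il22 was not analysed here. Of 14 cytokine receptor genes 2 lay above 0 and 12 below, with a median of -0.13. Il6ra, the IL-6 receptor, differed by -0.44 (SE 0.20), and by 0.05 with its other probe set, Il22ra2, a soluble decoy for IL-22, by -0.30 (SE 0.16) and Il10ra by -0.54 (SE 0.39). Il10ra read 6.39 in wild type 6 and no more than 5.03 elsewhere.

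Of 9 Janus kinase and other STAT genes 5 lay above 0 and 4 below, with a median of 0.04. Stat5a differed by 0.55 (SE 0.25), Jak3 by 0.53 (SE 0.23) and Stat5b by 0.34 (SE 0.19). The other probe sets of Stat5a and Stat5b differed by 0.22 and -0.0020. Of 15 inhibitors other than Socs3, 7 lay above 0 and 8 below, with a median of -0.00038. Socs1 differed by -0.23 (SE 0.18), Socs6 by 0.21 (SE 0.12) and Socs7 by -0.14 (SE 0.13). The other Socs6 probe sets differed by 0.02 and 0.04, and the other Socs7 probe sets lay on both sides of 0, from -0.09 to 0.08.

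Of 22 other STAT3 target genes 16 lay above 0 and 6 below, with a median of 0.16 (0.12 without wild type 6). Reg3g differed by 2.77 (SE 0.93), Birc5, an inhibitor of cell death active in mitosis, by 0.50 (SE 0.21) and S100a9 by -0.89 (SE 0.36). Of 21 genes of epithelial defence in inflammation 16 lay above 0 and 5 below, with a median of 0.20 (0.32 without wild type 6). The neutrophil chemokine Cxcl1 read 8.78, 8.13 and 9.03 in the knockouts, against 7.75, 7.53 and 7.11 in wild type 4, 5 and 6, a difference of 1.18 (SE 0.27). Here wild type 6 was the lowest array, unlike Lrg1, and the other Cxcl1 probe sets differed by 0.57 and 1.28. Tifa, an adaptor in NF-kB activation, differed by 0.67 (SE 0.24), and Duoxa2, which matures the epithelial oxidase DUOX2, by 0.45 (SE 0.16). The groups did not overlap in either. Of the 21 defence genes, 3 were higher without overlap and 0 lower, against 5.49% and 4.83% of all genes.

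Acute-phase proteins of the liver went both ways. Of 24 measured, 6 were brighter than the median probe set, 12 lay above 0 and 12 below, with a median of -0.00094. At an unadjusted p under 0.05, 3 were higher and 1 lower, where 2.41% and 1.77% of all genes were so called. Without overlap 3 were higher and 4 lower, against 5.49% and 4.83% of all genes. Cd14, a co-receptor for lipopolysaccharide, differed by 0.48 (SE 0.14) and the metallothionein Mt1 by 0.37 (SE 0.15). The other Mt1 probe set differed by 0.17 (SE 0.18), with overlap. Orm1, an orosomucoid, differed by -0.43 (SE 0.12). Its dim probe set read 3.38 to 3.43 across the knockouts, against 3.67 to 3.92 across wild type.

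Lists around single genes of the 10 were also read. Of 14 fucosylation genes beside Fut2, 7 lay above 0 and 7 below. Without overlap 3 were higher and 1 lower, against 5.49% and 4.83% of all genes. The GDP-fucose transporter gene Slc35c1 differed by 0.32 (SE 0.12), Gmds, which makes the precursor of GDP-fucose, by 0.25 (SE 0.11), both without overlap, and Fut9 by -0.39 (SE 0.22), with other probe sets at 0.11 and -0.24. Of 10 nitric oxide and arginine genes beside Nos2, 3 lay above 0 and 7 below, with Slc7a2 at -0.25 (SE 0.13; other probe sets -0.37 to 0.13), Arg1 at -0.21 (SE 0.12) and Nos3 at -0.18 (SE 0.11). Of 9 iron and siderophore genes beside Lcn2, 2 lay above 0 and 7 below. The iron importer gene Slc11a2 differed by 0.41 (SE 0.25), with other probe sets at 0.04 to 0.39. The hepcidin gene Hamp differed by -0.39 (SE 0.45) and the ferritin gene Fth1 by -0.12 (SE 0.11). Of 13 TGF-beta pathway genes listed as partners of Lrg1, 6 lay above 0 and 7 below, with a median of -0.15 (-0.02 without wild type 6). Tgfb2 differed by -0.28 (SE 0.13; other probe sets -0.19 to 0.04), the receptor gene Tgfbr1 by 0.25 (SE 0.14; other probe sets -0.13 and 0.29) and the inhibitor gene Smad7 by -0.30 (SE 0.17).

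**Figure D5:**
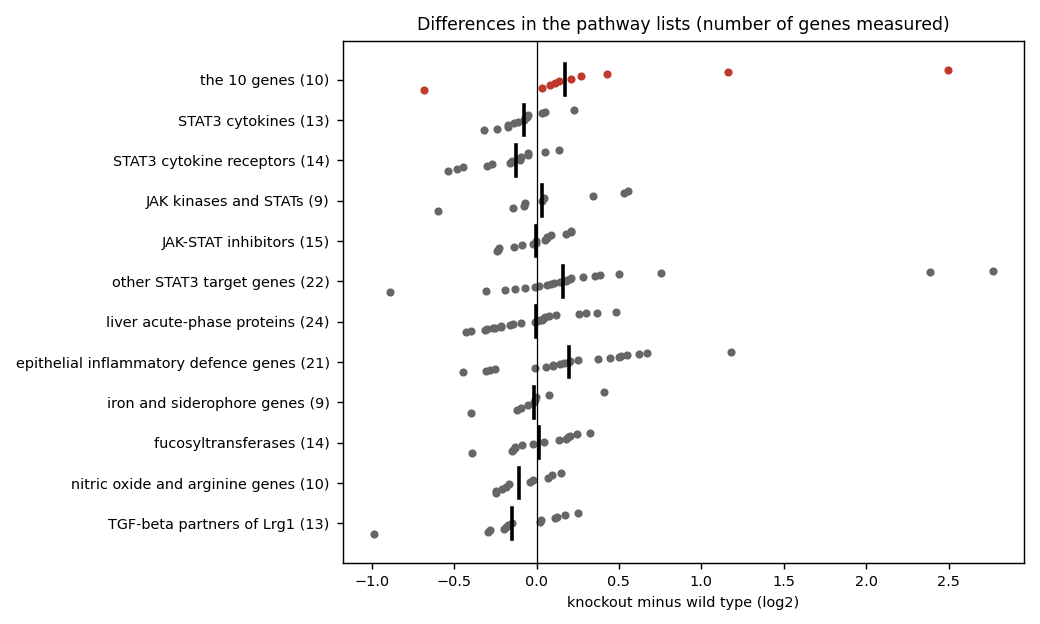
Knockout minus wild type (log2) of each gene by its brightest probe set in the 10 genes (red) and in the 11 pathway lists (grey), with the number measured and the median (black bar). List medians lie between -0.15 and 0.20, and the highest grey points, at 2.77 and 2.39, are Reg3g and Reg3b.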

How the data were processed

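RNA of pooled mice was amplified and read on Affymetrix mouse arrays. The deposited values are log2 expression values that the authors made with RMA, as named without a version in the submitters' processing notes. No scanner file, scan date or detection call was used. Of 45101 probe sets, 64 controls were left out. Annotation gave 1 gene symbol to 34945 and several to 932, and 9160 were unnamed; 34741 matched RefSeq by gene number. Knockout was compared with wild type in limma 3.58.1 (R 4.3.3), by a two-sided moderated fit with genotype as its one term and no filter on dim values, adjusted by Benjamini-Hochberg over 45037 probe sets at 0.05. SE and 95% intervals are limma's. A gene's brightest probe set has the highest mean over the 6 arrays. The fit was tested on simulated data. Alternatives were cyclic loess, dim probe sets left out, 1 probe set per gene, 1-symbol probe sets alone, a trended robust variance, array weights, 2 covariates (number of mice, B and plasma cell level), other choices of probe set and each array left out. The 10 genes, lists and naming rule (all 10 genes, up to 3 genes per pathway list by unadjusted p, the 2 brightest per marker list, and the nearest genes) were chosen with earlier results of these data known. The targeted genes are named outside this rule. Promoter motifs were chosen after the arrays had been read. An NF-kB motif was searched as well and dropped for a reason of formatting after its matches, before Socs3 and Il22ra1, had been seen; its values are not reported here. The 3 arrays per group, each from its own pool of mice, limit the precision, and spread means spread between pools.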

Additional observations from a re-analysis of the deposited data

How the results depend on the processing

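The limits are 3 arrays per group, an array (wild type 6) that stands apart, and no detection calls for dim probe sets. No paired analysis was possible because the knockout arrays are numbered 1 to 3 and the wild-type arrays 4 to 6, with no shared number. The Lrg1 difference stayed above 0 in all 16 alternatives, from 1.88 to 3.61 when each array was left out in turn, and it was 3.67 with the B and plasma cell level as a covariate. limma called 0 of the 17 probe sets, and 1, that of Lrg1, with that covariate, where it called 0.0111% of all probe sets; leaving out each array gave 0 to 1 calls, the 1 call coming without wild type 6. The B and plasma cell level mainly sets wild type 6 apart, so the covariate fit largely repeats the one without that array. These fits give no independent evidence, since Lrg1 was chosen for its difference. Saa1 ranged from -0.015 to 0.078 and Lcn2 from -0.030 to 0.56 when each array was left out. Nos2 was -0.058 with the number of mice as a covariate, where only knockout 1 is set against wild type, and Stat3 was -0.058 as the mean of its probe sets; the cause was not tested. Fut2, Il22ra1, Saa2, Saa3 and Socs3 kept their direction in every alternative run (15 or 16 each), and 0 of 163 pathway genes were called in any of the 14 run.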
